A study of Homo sapiens with 14 samples.

Results

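The clustered protocadherins are cell-surface adhesion proteins whose genes stand side by side in 3 clusters on chromosome 5. The members were the protein-coding GENCODE genes of hg38 on that chromosome named PCDHA, PCDHB or PCDHG with an isoform number, and 53 of 20033 protein-coding genes met this rule. There were 15 members in the alpha cluster, 16 in the beta cluster and 22 in the gamma cluster, all on the plus strand, and the clusters together ran over chr5:140786136-141512977, a span of 726.8 kb. Occupancy was read within 1 kb of each 5′ end and over the span with 50 kb on either side. WIBR3 cells, a widely kept line of human embryonic stem cells (hESCs), were grown on mouse feeder cells either in conventional primed medium with serum and FGF2 or, after conversion of primed cells and polyclonal expansion, in the naïve 5i/L/A medium of kinase inhibitors, LIF and Activin. Chromatin was immunoprecipitated and sequenced (ChIP-seq) in naïve and in primed cells with antibodies against BRG1 and BRM, the alternative ATPases of the BAF chromatin remodelling complex, BAF155, a scaffold subunit of it, and the transcription factor SOX2. Each BAF group had 1 library. SOX2 had 2 libraries per state, but their peak lists held the same positions, so each state gave 1 SOX2 list, and no comparison has a replicate check or a test. The peak lists carry no read totals, and those the study tabulates were not used here. A missing peak is a call under the authors' threshold, not an absence of protein.

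Each alpha and gamma member has its own promoter and a long first exon that encodes the extracellular cadherin repeats, and this exon is spliced to constant exons shared by the cluster, while a beta member is carried on its own exon. Neurons choose among these promoters so that neighbouring cells carry different sets of isoforms, and the choice involves CTCF, cohesin and a distant enhancer. The C-type members at the end of the alpha and gamma clusters are used more broadly than the rest. In the annotation used here the first exons measured 2470 to 3027 bp in the alpha cluster, 2563 to 2677 bp in the gamma cluster and 2750 to 7973 bp in the beta cluster.

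The promoters carry short sequences in common, which the choice of members did not use. These words were chosen after seeing the data, so their counts describe the promoters and are no test. Within 150 bp before to 50 bp after the 5′ end, on either strand, GATGTCGCT was found in 10 of 15 alpha members and in 0.0749% of all 20033 genes, and GGTGGCGCT was found in 14 of 16 beta members and in 0.524% of all genes. Another word, CGCTGTNNNCCA, was found in 13 of 22 gamma and 7 of 15 alpha members and in 0.319% of all genes, and it can overlap GATGTCGCT by its first letters. At least 1 of the words stood in 38 of 53 members, against 0.889% of all genes. They belong to the conserved sequence element known from protocadherin promoters. The 120 bases before the canonical 5′ end are given for 6 members, chosen to show promoters with and without a word and with different BAF occupancy, with a matching word in capitals. In hg38, plus strand, they lie at chr5:140875188-140875307 (PCDHA12), chr5:140926179-140926298 (PCDHAC1), chr5:141100353-141100472 (PCDHB3), chr5:141364042-141364161 (PCDHGA5), chr5:141417557-141417676 (PCDHGB7) and chr5:141484910-141485029 (PCDHGC4).
PCDHA12: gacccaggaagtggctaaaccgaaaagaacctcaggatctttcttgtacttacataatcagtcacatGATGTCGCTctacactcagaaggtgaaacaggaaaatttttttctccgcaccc
PCDHAC1: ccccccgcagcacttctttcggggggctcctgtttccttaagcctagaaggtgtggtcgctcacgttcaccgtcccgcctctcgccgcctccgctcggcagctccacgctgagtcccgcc
PCDHB3: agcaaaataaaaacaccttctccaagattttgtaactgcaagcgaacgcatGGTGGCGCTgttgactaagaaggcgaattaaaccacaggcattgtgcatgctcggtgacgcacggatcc
PCDHGA5: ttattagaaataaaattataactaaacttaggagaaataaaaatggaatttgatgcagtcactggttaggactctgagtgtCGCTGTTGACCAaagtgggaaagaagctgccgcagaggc
PCDHGB7: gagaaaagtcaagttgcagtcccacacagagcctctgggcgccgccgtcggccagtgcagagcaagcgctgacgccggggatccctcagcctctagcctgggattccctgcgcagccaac
PCDHGC4: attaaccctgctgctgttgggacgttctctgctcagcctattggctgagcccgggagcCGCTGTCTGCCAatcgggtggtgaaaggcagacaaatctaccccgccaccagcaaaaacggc

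The C-type promoters differed from the others in base composition. Over 500 bp on either side of the 5′ end, GC content was 53.5% to 64.5% in the 5 C-type members and 40.5% to 50.5% in the other 48 members, so these groups did not overlap. The median over all protein-coding genes was 61.3%. Thus the C-type promoters were nearer to the usual human promoter than the rest of the family.

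At the 5′ ends, BAF occupancy was called at a minority of members in both states. A naïve BRG1 peak lay within 1 kb of 11 of 53 members (20.8%), against 58.7% of all protein-coding genes. For naïve BAF155 the count was 5 of 53 members (9.43%) against 59.4%, and for naïve BRM it was 2 of 53 (3.77%) against 16.4%. In primed cells a BAF155 peak was called at 12 members (22.6%) against 65.8% of all genes, and a BRG1 peak at 1 member (1.89%) against 27.5%. SOX2 peaks were found at 0 of 53 members in both states, where 0.225% of all genes in naïve cells and 2.96% in primed cells had one. All 5 BAF shares were thus lower among members than among all genes.

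For naïve BRG1 and primed BAF155 the gap was much narrower among genes under 50% GC. This class had no lower limit and also held genes poorer in GC than any member, so it was not matched to the members. Whether the gap remains among genes within the GC range of the members was not tested. Of the 3325 protein-coding genes under 50% GC at the 5′ end, 15.1% had a naïve BRG1 peak, and 7 of the 47 members in this class (14.9%) had one. For primed BAF155 the values were 20.3% of these genes and 8 of 47 members (17.0%), again close to each other. Naïve BAF155 stood at 15.5% of these genes and 2 of 47 members (4.26%), and primed BRG1 at 6.14% and 1 of 47 members (2.13%).

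**Figure D1:**
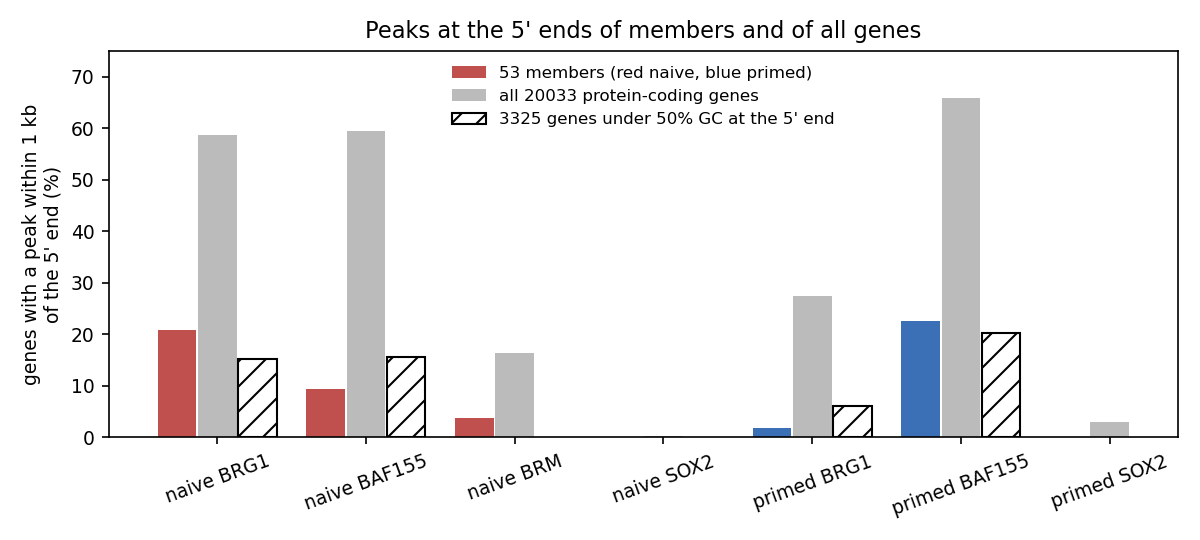
Percentage of genes with a peak within 1 kb of the 5′ end (vertical axis) for each of 7 peak lists (horizontal axis). Coloured bars show the 53 members, grey bars all 20033 protein-coding genes and hatched bars, drawn for the BRG1 and BAF155 lists alone, the 3325 genes under 50% GC. Members had 20.8% for naïve BRG1 and 22.6% for primed BAF155, under the grey bars of 58.7% and 65.8% and nearer the hatched bars of 15.1% and 20.3%. The 47 members under 50% GC, not drawn apart, had 14.9% and 17.0%. For naïve BAF155 and primed BRG1 the members, at 9.43% and 1.89%, were under the hatched bars of 15.5% and 6.14%.

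Members fell into 4 classes by state, and most were occupied in neither. With a BRG1 or a BAF155 peak counted as occupied, 6 of 53 members were occupied in both states, 6 in naïve cells only, 6 in primed cells only and 35 in neither. Over all protein-coding genes these classes held 58.6%, 6.91%, 7.2% and 27.2%. The members occupied in both states were PCDHAC1, PCDHAC2, PCDHB1, PCDHB3, PCDHGC3 and PCDHGC4, so that 4 of the 5 C-type members were among them. The C-type member PCDHGC5 had no 5′ peak in any list. Naïve cells alone had peaks at PCDHA1, PCDHA13, PCDHB4, PCDHGA1, PCDHGA4 and PCDHGA5. The PCDHA13 peak had its midpoint 1525 bp downstream and only reached into the 5′ window. Primed cells alone had peaks at PCDHA10, PCDHA12, PCDHB2, PCDHB5, PCDHGB7 and PCDHGA11. The naïve-only members all rested on BRG1 peaks, from a list of 57884 peaks against 15611 in primed cells, and with lists of equal length naïve BRG1 was at 0 of 53 members. The primed-only members all had a primed BAF155 peak, and PCDHGB7 had primed BRG1 as well. The even split thus came from joining 2 antibodies. By BAF155 alone no member was naïve-only, since all 5 with a naïve peak also had a primed one. By BRG1 alone no member was occupied in both states. PCDHAC2 counted as both through naïve BRG1 and primed BAF155. At −log10 q of at least 3 the 5′ peaks left were naïve BRG1 at PCDHB4 and primed BAF155 at PCDHAC1, PCDHGB7 and PCDHGC4. The unoccupied members were 9 in the alpha, 11 in the beta and 15 in the gamma cluster, and in the beta cluster they formed an unbroken run from PCDHB6 to PCDHB15. Of the 18 occupied members 12 carried a promoter word, and of the 35 unoccupied members 26 did.

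PCDHAC1 and PCDHGC4 had the fullest occupancy, with peaks in 4 of the 7 lists. Fold is here the enrichment over the input DNA that the authors' peak caller gave for each peak. The BAF peaks were called as broad peaks, so their fold is not a summit height. At PCDHAC1 the fold was 2.64 for naïve BRG1, 2.39 for naïve BAF155, 2.75 for naïve BRM and 3.27 for primed BAF155. These peaks began near the 5′ end and ran into the first exon, up to chr5:140927519 for naïve BRG1. At PCDHGC4 naïve BRG1 made a peak before the gene with fold 3.23 and another over the 5′ end with fold 2.97. The naïve BAF155 peak there had fold 3.21, naïve BRM 3.64 and primed BAF155 3.52. In both states the BAF155 peak of PCDHGC4 began at the same base, chr5:141483960, and was over 1500 bp wide, at 1524 bp in naïve and 1591 bp in primed cells.

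The other C-type members were occupied more thinly. PCDHGC3 had fold 2.65 for naïve BRG1, 2.40 for naïve BAF155 and 2.68 for primed BAF155. PCDHAC2 had fold 2.70 for naïve BRG1 and 2.89 for primed BAF155, on separate stretches around its start, chr5:140966991-140967271 and chr5:140966382-140966953. PCDHGC5 had no peak at its start, but naïve BRG1 (fold 3.21) and naïve BAF155 (fold 2.74) made peaks near the end of its first exon, from chr5:141491480 to chr5:141491737 for BRG1.

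Among the beta members, PCDHB3 had peaks over its start in 3 lists, with fold 2.77 for naïve BRG1, 2.65 for naïve BAF155 and 3.29 for primed BAF155. Its naïve and primed BAF155 peaks both began at chr5:141100345. PCDHB1, the first beta gene, had naïve BAF155 with fold 2.85 and primed BAF155 with fold 2.80. PCDHB4 had naïve BRG1 alone, with fold 3.14, while PCDHB2 and PCDHB5 had primed BAF155 alone, with folds 2.98 and 3.25. In the gamma cluster PCDHGB7 was the member with a primed BRG1 peak at its 5′ end, with fold 3.29, under a primed BAF155 peak of fold 3.69. PCDHGA1 and PCDHGA5 had naïve BRG1 peaks of fold 2.78 and 2.80. In the alpha cluster PCDHA13 had a naïve BRG1 peak of fold 3.19, centred in the first exon. PCDHA12 and PCDHA10 had primed BAF155 peaks of fold 3.21 and 2.57.

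**Figure D2:**
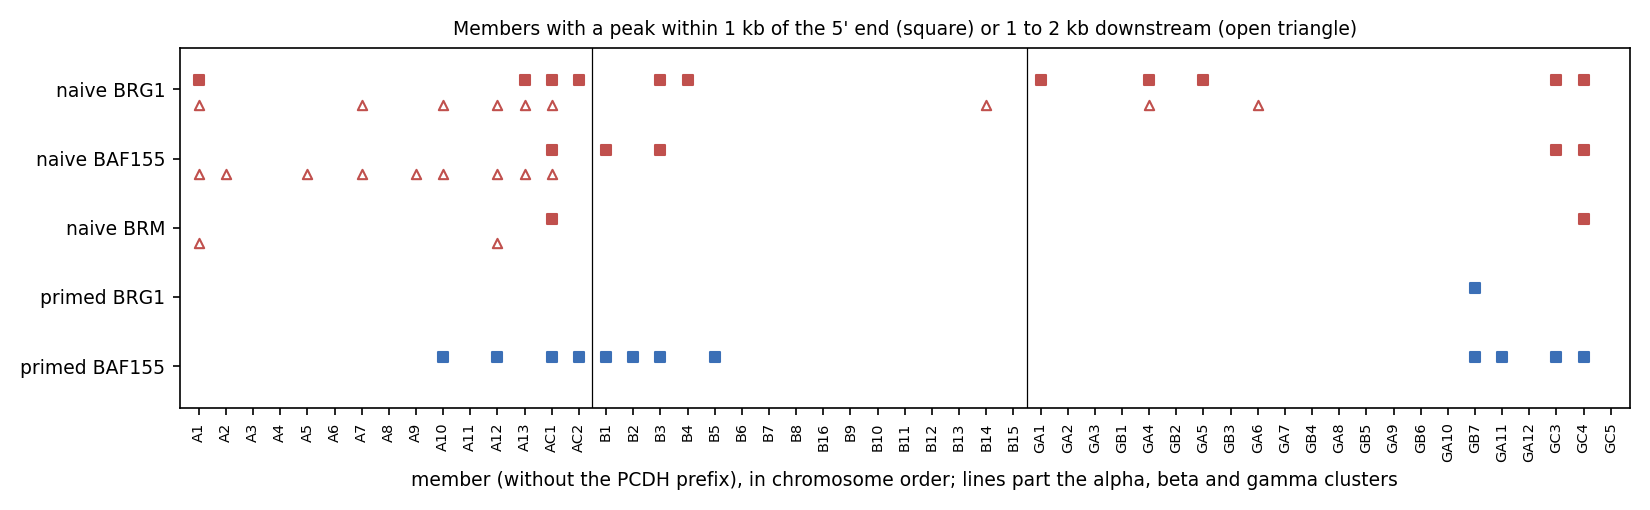
Members in chromosome order (horizontal axis) against the 5 BAF peak lists (vertical axis), red for naïve and blue for primed. A filled square marks a peak within 1 kb of the 5′ end and an open triangle a peak 1 to 2 kb downstream. The triangles are all naïve and lie mainly in the alpha cluster, and the squares of PCDHAC1 and PCDHGC4 fill 4 rows each.

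In naïve cells many alpha members had peaks inside the first exon, and PCDHA1 also had a separate peak at the start. At the 5′ ends naïve BRG1 was at PCDHA1, PCDHA13, PCDHAC1 and PCDHAC2, and naïve BAF155 at PCDHAC1 alone. Naïve BAF155 peaks lay 1 to 2 kb downstream of the canonical 5′ end in 9 of 15 alpha members, namely PCDHA1, PCDHA2, PCDHA5, PCDHA7, PCDHA9, PCDHA10, PCDHA12, PCDHA13 and PCDHAC1. Naïve BRG1 peaks lay there in 6 of 15, each of which also had BAF155, and naïve BRM peaks in PCDHA1 and PCDHA12. The PCDHAC1 peaks have their midpoints at 589 bp (BRG1) and 602 bp (BAF155), so that their ends alone reach this window. The naïve BRG1 peak of PCDHA13 has its midpoint at 1525 bp and is counted both here and at the 5′ end. At the position best covered, 1350 bp from the 5′ end, 8 of the 15 alpha members (53.3%) were under a naïve BAF155 peak. Over all protein-coding genes that list covered most genes at 50 bp from the 5′ end, with 46.2%. This window was chosen after the peak positions had been seen.

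Primed cells had no peak in this part of any member. Primed BAF155 and primed BRG1 peaks lay 1 to 2 kb downstream in 0 of 53 members, where 21.8% and 4.16% of all protein-coding genes had one. Over all 53 members the naïve counts were 9 for BRG1, against 15.3% of all genes, 9 for BAF155, against 16.4%, and 2 for BRM, against 3.11%, so the naïve shares of 17.0%, 17.0% and 3.77% were near the background. The GC content of this window was 58.4% to 61.6% in the alpha members other than C type and had a median of 46.1% over all genes. Among the 3323 genes with 55 to 65% GC in the window, 28.9% had a naïve BRG1 peak and 29.5% a naïve BAF155 peak, against 7 and 9 of the 30 members in this class. Primed BAF155 had a peak in 34.9% of these genes and in 0 of the 30 members. Pooled over the clusters, the naïve lists were thus near the background of this class. The primed BAF155 list, with 58352 peaks against 62338 for naïve BAF155, was under it. The pooled naïve counts join unlike clusters. Naïve BAF155 was at 9 of 15 alpha, 0 of 16 beta and 0 of 22 gamma members, and naïve BRG1 at 6, 1 and 2.

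**Figure D3:**
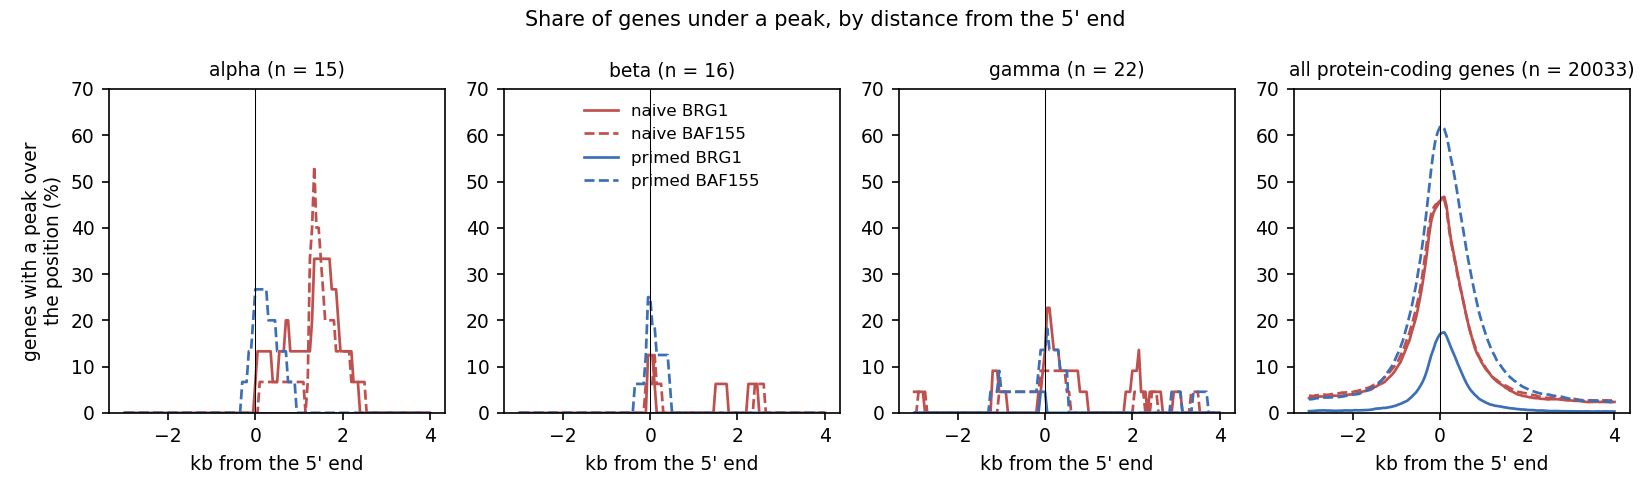
Percentage of genes with a peak over each position (vertical axis) by distance from the canonical 5′ end in kb (horizontal axis), for the alpha, beta and gamma members and for all protein-coding genes. Red lines are naïve, blue lines primed, solid lines BRG1 and dashed lines BAF155. The naïve lines of the alpha members are highest at 1350 bp, at 53.3% for BAF155, where the primed lines are at 0.

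The exon peaks had ordinary or slightly raised folds for their lists. The highest naïve BAF155 peak of the region lay in PCDHA12, with fold 3.75 and −log10 q 3.71, among the top 7.93% of its list by fold. The PCDHA2 exon followed with fold 3.63. Naïve BRG1 had fold 3.55 in PCDHA12, 3.37 in PCDHA10 and 3.12 in PCDHA1, and its highest peak of the region, fold 3.59, lay in the first exon of PCDHGA8. The median fold was 3.01 for the 11 naïve BAF155 peaks in first exons beyond 1 kb and 2.65 for the 5 peaks at member 5′ ends, where the whole list had 2.89. For naïve BRG1 it was 3.17 for 10 exon peaks and 2.77 for 12 peaks at 5′ ends, against 2.93 for the list. The PCDHA13 peak of fold 3.19, centred in the first exon, is among those at 5′ ends. Thus the exon peaks had the higher median in both naïve lists.

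The exons of PCDHA1 and PCDHA12 were the ones with a naïve BRM peak, at chr5:140787476-140787674 with fold 3.21 and at chr5:140876705-140876907 with fold 3.61. PCDHA1 is named for this peak after its values were seen. Both peaks are printed from hg38, plus strand, to show how alike the exons are, with every run of 12 or more bases found in both peaks in capitals. Such runs made up 104 of 199 bases in PCDHA1 and 104 of 203 bases in PCDHA12.
PCDHA1 first exon: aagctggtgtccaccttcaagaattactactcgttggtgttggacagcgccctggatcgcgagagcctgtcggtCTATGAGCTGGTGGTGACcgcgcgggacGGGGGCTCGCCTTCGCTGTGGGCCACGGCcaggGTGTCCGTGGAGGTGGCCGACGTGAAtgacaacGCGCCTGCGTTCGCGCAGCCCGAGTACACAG
PCDHA12 first exon: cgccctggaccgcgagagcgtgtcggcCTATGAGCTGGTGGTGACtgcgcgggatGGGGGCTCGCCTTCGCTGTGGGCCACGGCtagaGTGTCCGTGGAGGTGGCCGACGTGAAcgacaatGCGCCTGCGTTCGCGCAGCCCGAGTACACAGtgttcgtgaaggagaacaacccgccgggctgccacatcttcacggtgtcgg

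Likeness of this kind bears on which reads can be placed. The BAF libraries were read as 75-base single ends, and a stretch of 75 bases with another copy in hg38 cannot be placed uniquely. In the window 1 to 2 kb downstream, over 10% of the 75-base stretches had another copy in 12 of 16 beta, 2 of 15 alpha and 2 of 22 gamma members, and in 60 of the 882 protein-coding genes of chromosome 5, members included. Around the 5′ end this held for 8 of 53 members and 42 of the 882 genes. The members past this limit at the 5′ end were PCDHA7, PCDHA9, PCDHB8, PCDHB9, PCDHB10, PCDHB13, PCDHGB4 and PCDHGB5, and none of them had a 5′ peak in any list. Among all 53 members 35 had no such peak, so this is little beyond the usual share. The part of repeated sequence in the missing peaks was not tested.

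A word resembling the core of the CTCF motif, CCNNNAGNNGGC, was also common in the alpha exons. On either strand it stood 1 to 2 kb downstream of the 5′ end in 12 of 15 alpha, 0 of 16 beta and 4 of 22 gamma members, and in 13.5% of all protein-coding genes. Of the naïve BAF155 peaks in alpha first exons, those in PCDHA1, PCDHA7 and PCDHA13 held the word, and those in PCDHA2, PCDHA5, PCDHA9, PCDHA10 and PCDHA12 did not. Of the naïve BRG1 peaks there, those in PCDHA1, PCDHA7 and PCDHA10 held it, and the one in PCDHA12 did not. The PCDHA13 naïve BRG1 peak, which also reaches the 5′ window, covered the word at 1770 bp. PCDHAC1 had no such word 1 to 2 kb downstream. The BRM peaks did not hold it.

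Over the whole region every list with a peak here, naïve or primed, was denser than over the genome. The genome value takes no account of gene density. The span with flanks held 35 naïve BRG1 peaks, or 42.3 per Mb against 18.7 over the genome, and 28 naïve BAF155 peaks, or 33.9 against 20.2 per Mb. Primed BRG1 had 9 peaks (10.9 against 5.05 per Mb) and primed BAF155 23 peaks (27.8 against 18.9 per Mb). Naïve BRM had 6 peaks (7.26 against 5.64 per Mb) and primed SOX2 6 peaks (7.26 against 3.01 per Mb). Naïve SOX2 had 0 peaks, where the genome had 0.628 per Mb, and primed BRM, whose whole list held 167 peaks, had 0. Naïve BAF peaks were narrow here, with a median of 290 bp for BRG1 and 266 bp for BAF155 against 463 and 479 bp over the lists. Primed BAF155 peaks were wider than usual, with 670 bp against 507 bp, and covered 22.43 kb of the region, where naïve BAF155 peaks covered 11.55 kb.

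**Figure D4:**
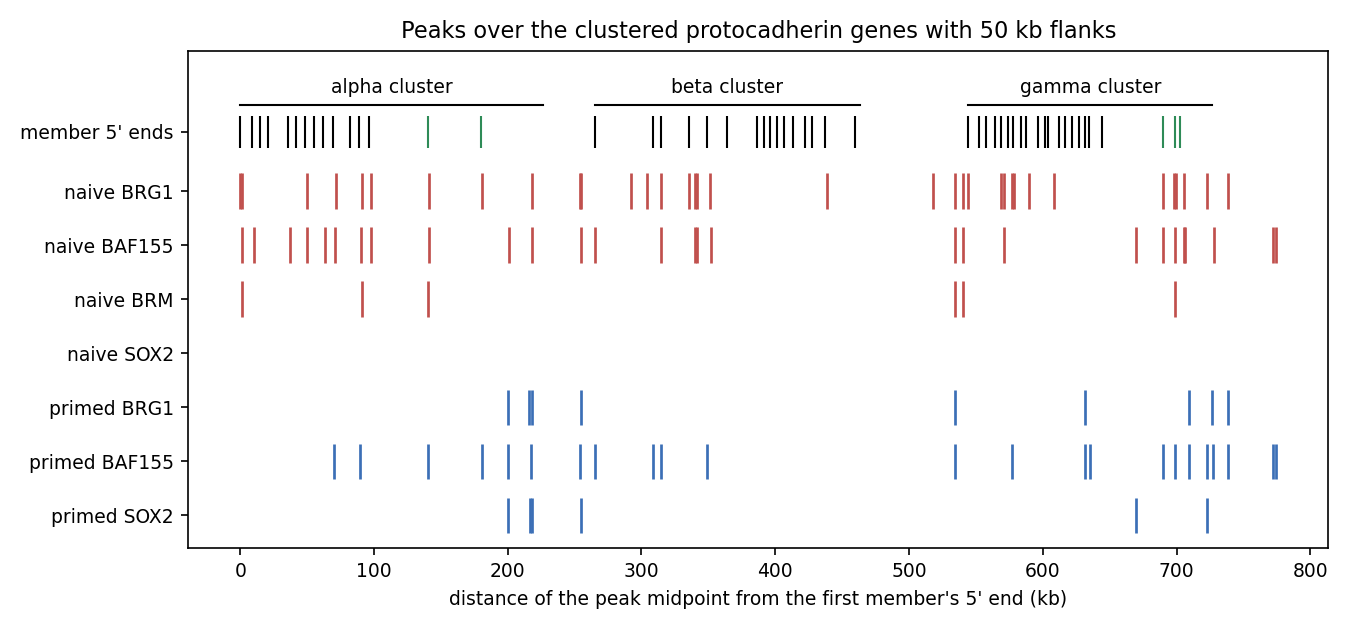
Position of each peak midpoint in kb from the 5′ end of PCDHA1 (horizontal axis) for 7 peak lists (vertical axis), red for naïve and blue for primed, with the 5′ ends of the 53 members above (C-type members in green). Naïve peaks follow the alpha members from 0.2 to 97.9 kb, 4 of the 6 primed SOX2 peaks lie at 200.2 to 254.9 kb and the others at 669.6 and 722.7 kb, and the later beta members have few peaks.

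When BRG1 and BAF155 peaks of a state were merged into BAF regions, and regions were called shared where at least 25% of either was covered, naïve-only regions outnumbered primed-only ones. There were 29 naïve-only regions (55.8% of the regions here, against 45.4% over the genome), 9 primed-only regions (17.3% against 28.5%) and 14 common regions (26.9% against 26.1%). The genome shares come from the same merging of these lists and are not the shares the study reports. Of the naïve-only regions 13 lay in first exons of members beyond 1 kb, 2 of them with a BRM peak, and 7 at member 5′ ends. Of the primed-only regions 7 lay at member 5′ ends, 1 in an intron and 1 in a later exon. At −log10 q of at least 3 there were 5 naïve-only and 9 primed-only regions here. Classes over the genome were not counted at this threshold, so these numbers have no background. The threshold left 17665 naïve and 27065 primed BAF155 peaks, and 16144 naïve and 4482 primed BRG1 peaks.

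Primed SOX2, a transcription factor of pluripotent and neural cells, had 6 peaks in the region and 0 at member 5′ ends, which is near the 2.96% of all genes with such a peak. Of the 6 peaks 5 lay in introns and 1, at chr5:141040775-141041309, in the gap between the alpha and beta clusters at the start of a non-coding gene. The strongest, chr5:141002182-141002595, had fold 8.18 and −log10 q 26.3 and lay between the PCDHAC2 first exon and the constant exons of the alpha cluster. The next, chr5:141004162-141004582, had fold 7.29, and both lay under 1 primed BAF155 peak, chr5:141001276-141005217, which was 3942 bp wide with fold 4.81, the highest of that list within the members. Primed BRG1 made a peak under each of them, with folds 3.86 and 4.24. The other alpha intronic peak, chr5:140986079-140986635, had fold 6.08. It was covered by a primed BAF155 peak (fold 3.87), and a shorter primed BRG1 peak (fold 3.35) lay inside it.

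The remaining SOX2 peaks differed in their BAF company. The peak after the alpha cluster had fold 5.48 and overlapped primed BRG1 of fold 3.51 and primed BAF155 of fold 3.64. In the gamma introns, chr5:141508750-141509009 had fold 4.50 and overlapped primed BAF155, while chr5:141455602-141455807, with fold 6.08, overlapped no primed BAF peak but a naïve BAF155 peak of fold 2.68. In all, 4 of the 6 shared a base with a primed BRG1 peak, against 42.5% of the 9290 primed SOX2 peaks, and 5 of 6 with a primed BAF155 peak, against 88.8%. Naïve BRG1 and naïve BAF155 peaks each overlapped 3 of the 6, against 36.4% and 36.6% of the list. With 6 peaks, some of which share a locus, no order was read between these shares.

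The bases around 3 of the SOX2 summits are given, 60 on either side, for the strongest peak, the peak after the alpha cluster and the gamma peak without primed BAF. They lie in hg38, plus strand, at chr5:141002363-141002483, chr5:141041175-141041295 and chr5:141455619-141455739. Capitals mark the SOX words CATTGT and CTTTGT and the octamer ATGCAAAT, searched on both strands.
strongest intronic peak: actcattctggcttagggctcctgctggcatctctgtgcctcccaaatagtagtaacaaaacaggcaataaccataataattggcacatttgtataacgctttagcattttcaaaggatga
peak after the alpha cluster: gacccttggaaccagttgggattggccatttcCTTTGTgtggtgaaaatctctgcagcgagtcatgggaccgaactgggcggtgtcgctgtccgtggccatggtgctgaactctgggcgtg
gamma intronic peak: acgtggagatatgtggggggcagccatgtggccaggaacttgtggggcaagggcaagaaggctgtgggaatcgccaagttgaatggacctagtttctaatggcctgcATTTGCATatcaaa
A SOX word stood in such a window at 1 of the 6 summits, the peak after the alpha cluster, and at 48.5% of all primed SOX2 summits. The octamer stood at 1 of 6, the gamma peak, in reverse orientation, and at 6.62% of all.

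**Figure D5:**
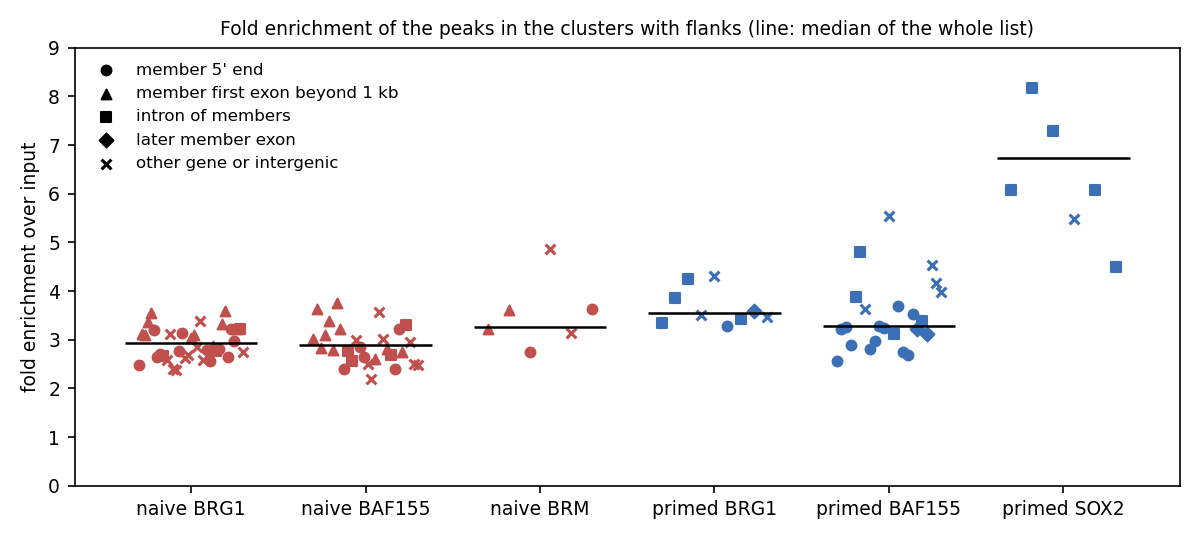
Fold enrichment over input (vertical axis) of every peak in the region by list (horizontal axis), red for naïve and blue for primed, with the place of each peak by symbol and the median of the whole list as a black line. The 2 highest SOX2 peaks, 8.18 and 7.29, are intronic, and the primed BAF155 point at 5.54 is the TAF7 start, not a member.

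The strongest peak of 3 lists in the region belonged to a neighbour. TAF7, a general transcription factor gene between the beta and gamma clusters, had fold 4.86 for naïve BRM, 4.31 for primed BRG1 and 5.54 for primed BAF155 at its 5′ end. Of 4 other protein-coding genes that overlap the region, TAF7 and DIAPH1 had 5′ peaks of naïve BRG1, naïve BAF155 and primed BAF155. Those of DIAPH1 lay outside the region. SLC25A2, a mitochondrial carrier gene, had a 5′ peak of naïve BRG1 alone.

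The non-clustered protocadherins, which have a promoter each and lie mostly elsewhere, were read in the same way. Primed BAF155 peaks were present at 12 of 12, against 65.8% of all genes. Naïve BRG1 peaks were at 7, with 58.7% of all genes, naïve BAF155 at 4 (59.4%), primed BRG1 at 2 (27.5%) and naïve BRM at 1 (16.4%). Whether these shares differ from those of the clustered members was not tested. SOX2 peaks were at 0 of 12 in both states. PCDH1 had peaks in all 5 BAF lists, and PCDH10, PCDH11X, PCDH17 and PCDH18 had primed BAF155 alone. Genes for factors that fold or silence the clusters, such as CTCF, the cohesin subunit RAD21 and the chromatin protein SMCHD1, had naïve BRG1 and naïve BAF155 peaks at 13 of 13 and primed BAF155 peaks at 12 of 13, the exception being SMC1A. Naïve BRM and primed BRG1 peaks lay at 6 and 7 of these 13, and REST, a repressor of neuronal genes, had a SOX2 peak in both states.

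At marker genes the primed BRG1 and BAF155 lists separated the states and the naïve lists did not. The naïve markers KLF17, SUSD2, DPPA5 and DNMT3L had naïve BRG1 and naïve BAF155 peaks at 4 of 4 and primed ones at 0 of 4, and KLF17 had a primed SOX2 peak. The primed markers SFRP2, SOX11, ZIC2 and DUSP6 had primed BRG1 and primed BAF155 peaks at 4 of 4, and naïve BRG1 was also at 4 of 4 and naïve BAF155 at 3 of 4 (SFRP2, SOX11 and ZIC2). POU5F1 and LIN28A, used in both states, had naïve BRG1 and BAF155 peaks at 2 of 2 and primed ones at LIN28A. Primed SOX2 peaks also lay at 2 of the 4 primed markers, DUSP6 and SFRP2, and at LIN28A. Of the fibroblast markers, COL1A1 and COL1A2 had peaks in all 5 BAF lists, and LUM and THY1 in none; the part of feeder cells in these lists was not tested.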

How the data were processed

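ChIP-seq peak lists of naïve and primed WIBR3 hESCs were used as deposited: 10 lists of 14 labelled samples, 4 of which were inputs. Per the study's methods, the authors trimmed reads with trim_galore, mapped them to hg38 with bowtie2 (2.3.4 in the submitters' processing notes, which also name SAMtools 0.1.19 and FastQC 0.10.1), removed duplicates and called peaks over input with MACS2, broad for BAF subunits and narrow for SOX2. Whether SOX2 libraries were pooled is not given in the sources used here; both lists of a state were identical in position and counted once. The deposited lists give positions and, in 7 lists, a score, fold enrichment (a linear ratio over input) and −log10 of p and q, all the authors' values. The score was not used. Single-end and paired-end libraries came from different facilities, and mouse feeder reads were not filtered out by any step described, which could add signal in conserved sequence. The lists hold no read counts and the read totals tabulated by the study were not used, so no interval was computed. The SOX2 and BRG1 lists used here hold fewer peaks than a table of the study states for them. The merged BAF regions also differ in number from those the study reports. Counts and genome shares therefore apply to these lists alone.

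Genes were those of GENCODE release 44, and sequence was read from hg38. No list ran past a chromosome end. Interval counts were made in Python 3.11.15 with numpy 2.4.6, pandas 2.3.3 and pysam 0.24.0, and were tested on simulated intervals. A gene had a peak if any base lay within 1 kb of the 5′ end of its record. Motif, GC and 1 to 2 kb windows used the canonical transcript. The members described singly were the C-type members, the 5 members per cluster with peaks in most lists (ties by fold), every member with a BRM peak, and the highest peak of each list. The members and lists were chosen with earlier results of these data known. The GC classes, the sequence words and the 1 to 2 kb window were chosen after seeing the data. Windows, thresholds, list lengths and overlap rules were varied.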

Additional observations from a re-analysis of the deposited data

How the results depend on the processing

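Counts of members with a 5′ peak stayed within 1.5 times their value with 500 bp windows, with peak midpoints and with canonical 5′ ends. With 2 kb windows naïve BAF155 rose to 13 and naïve BRM to 4 members, since these windows take in the first exons. At −log10 q of at least 3 the counts were 1 for naïve BRG1 (PCDHB4; 17.0% of all genes), 0 for naïve BAF155 (3804 of the 20033 genes), 0 for naïve BRM (2.89%), 0 for primed BRG1 (4.08%) and 3 for primed BAF155 (PCDHAC1, PCDHGB7 and PCDHGC4; 34.0%). With lists of equal length in both states, naïve BRG1 was at 0 of 53 members (16.3% of all genes), while naïve BAF155 was at 4 (57.6%). In the window 1 to 2 kb downstream, naïve BAF155 kept 9 members at equal length (15.7% of all genes) and 2 (PCDHA2 and PCDHA12; 5.36%) at −log10 q of at least 3; naïve BRG1 had 0 under both and naïve BRM 0 under the latter, and primed BRG1 and BAF155 had 0 under every alternative run. Common and primed-only BAF regions numbered 9 and 14 with 25% of both regions covered, 7 and 16 with 50% of both covered, and 4 and 5 from BRG1 peaks alone. At −log10 q of at least 3 there were 5 naïve-only and 2 common regions, and from BAF155 peaks alone 16 naïve-only regions.

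No paired analysis was possible because no result comes from a test: the BAF groups have 1 library each, and the 2 SOX2 lists of a state hold the same peaks. The BAF lists reach down to −log10 q of 1.00 to 1.01 and most member peaks lie under 3, so the naïve pattern rests on weak peaks of 1 library per antibody. SOX2 lists start at 1.31 and 1.35.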
